A study of Mus musculus with 6 samples.

Results

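The reactive astrocyte genes are 10 genes that serve as markers of astrocytes responding to injury, namely Gfap, Vim, Nes, Serpina3n, Cd44, Steap4, S1pr3, Tgm1, Ptx3 and Emp1. Members were found as the rows of the deposited gene table that carry these names, and 10 of 10 were found among its 41386 genes. The table holds bulk RNA-seq of hippocampus from wild type C57BL/6 mice, 56 days old. One group of 3 libraries came from mice with focal middle cerebral artery occlusion (MCAO) lasting 1.5 h, then 24 h of reperfusion (I/R), and the other group of 3 libraries from mice with a sham operation. Per the study's methods the left artery was occluded, the ipsilateral hippocampus was taken and 3 hippocampi were pooled for each replicate, so differences among libraries are differences among pools, which can be smaller than those among mice. An occluded artery injures only part of a hemisphere, and a hippocampus holds neurons, other glia and vessels besides astrocytes. In bulk RNA, more cells of a type and more RNA per cell cannot be told apart.

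Astrocytes are the glial cells that feed neurons, take up glutamate and potassium and enwrap vessels and synapses. After injury they enlarge, lay down intermediate filaments and turn on genes of cytokine response, matrix binding and the acute phase, a state called reactive astrogliosis. Signals of the interleukin-6 family that act through the transcription factor STAT3 are among the known inducers of this state. Gfap marks astrocytes, but Vim and Nes are also used by endothelial and progenitor cells, and Cd44, Emp1, Ptx3, Steap4 and Serpina3n are made by other cells too.

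Total counts were 37527226 to 39553637 in the I/R libraries and 37493042 to 44788547 in the sham libraries. All 15 genes listed for homeostatic astrocytes and all 8 for neurons were detected in both groups, though other brain regions express them too. Prox1, a marker of dentate granule neurons in the hippocampus, was at 138 ± 13.4 CPM in sham (SD, n = 3) and 80.9 ± 11.3 CPM in I/R. Levels are given as CPM, the count of a gene per 1e+06 counts of a library whose size was scaled with TMM factors (a trimmed mean of log ratios between libraries). A gene was called at an edgeR quasi-likelihood adjusted p under 0.05 with a fold change over 1.2. Of 18569 genes tested, 41.8% were called, with 21.8% higher and 19.9% lower in I/R, and 29.3% had every I/R library above every sham library. I/R replicate 1 stood apart from the other I/R libraries, with neuron markers summing to 2513 CPM against 5102 and 5765 CPM, and choroid plexus markers summed to 33.1 CPM in I/R replicate 3 and 36.5 CPM in sham replicate 1 but to 1596 to 4421 CPM in the other 4 libraries.

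All 10 reactive astrocyte genes were upregulated in I/R versus sham, against 21.8% of all genes tested, and in 10 of 10 every I/R library lay above every sham library, against 29.3%. Their median log2 fold change was 3.72, whereas that of all genes tested was 0.03. The 10 genes and the lists below were chosen with earlier results of these data known. Their counts beside the shares of all genes are therefore descriptions and not tests. Tgm1 passed the filter on low counts only through the I/R libraries. The other 9 had at least 10 counts in every library, and 9 of 9 were upregulated. An exact permutation test of the CPM values gave a two-sided p of 0.1 for each of the 10 genes, which is the smallest that 3 libraries against 3 allow.

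**Figure D1:**
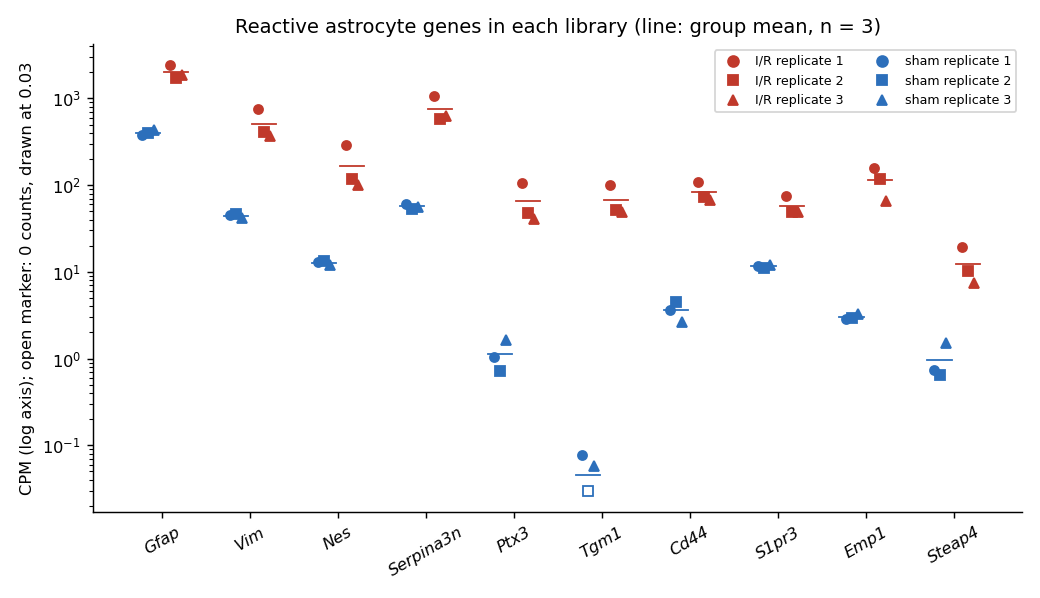
Level of each reactive astrocyte gene in CPM on a log axis, 1 marker per library with I/R in red and sham in blue; a line is the group mean of 3 libraries, and the open marker is a library with 0 counts. In every gene the I/R markers lie above the sham markers, and I/R replicate 1 is the highest of all; the gap is narrowest for Gfap, where the lowest I/R library (1715 CPM) is 3.94 times the highest sham library (435 CPM).

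The filament proteins come first. Gfap encodes glial fibrillary acidic protein, the main intermediate filament of astrocytes (MGP_BALBcJ_G0019191, chr11:101907603-101921148 on the BALB/cJ assembly, minus strand). Its level was 2415, 1715 and 1864 CPM in I/R replicates 1, 2 and 3 and 375, 399 and 435 CPM in sham replicates 1, 2 and 3. All I/R libraries were high and the sham libraries lay close together. Gfap rose by 2.31 on the log2 scale (SE 0.17, edgeR adjusted p of 0.000269). In the deposited FPKM, which divide counts by gene length, Gfap was the most abundant of the 10 genes in both groups, with 198 ± 14.8 (SD, n = 3) for sham and 1180 ± 275 for I/R. Among all genes in a library its FPKM ranked 415 to 515 in sham and 20 to 35 in I/R. Its log2 fold change was nevertheless the smallest of the 10, with that of S1pr3 at the same size. A gene on the other strand, Gm26668, overlaps Gfap and had 45 counts in all 6 libraries together, against 298832 for Gfap.

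Vim encodes vimentin, the filament that partners Gfap in reactive and immature astrocytes and that endothelial cells also contain (MGP_BALBcJ_G0025330, chr2:10653438-10662328, plus strand). Its level was 749, 409 and 368 CPM in the I/R libraries and 45.7, 46.2 and 41.9 CPM in the sham libraries. The sham libraries differed little, while I/R replicate 1 was well above the others. Vim rose by 3.51 (log2, SE 0.28, edgeR adjusted p of 0.000291).

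Nes encodes nestin, a filament of neural progenitors that astrocytes express again after injury (MGP_BALBcJ_G0027350, chr3:85208447-85218088, plus strand). Nes stood at 288, 116 and 100.4 CPM in the I/R libraries, and at 12.9, 13.5 and 12.1 CPM in the sham libraries. The groups did not overlap, but I/R replicate 1 was 2.66 times the mean of the other I/R libraries, the widest such ratio of the 10 genes. The log2 fold change of Nes was 3.71 (SE 0.40, edgeR adjusted p of 0.000681), and without I/R replicate 1 it was 3.08, still called. Neural progenitor markers did not rise with Nes as a list: of 9 tested, 1 was higher (Sox11, 0.85), 1 was lower (Tbr1, -0.96), and the median log2 fold change was 0.11. Tbr1 is a gene of postmitotic neurons, so its fall is no measure of progenitors.

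Other intermediate filaments and their binding proteins were mixed. Of 9 tested, 3 were higher, 3 lower and 3 not called, with a median log2 fold change of -0.04. Lmna, a filament of the nuclear lamina, rose by 1.70 (SE 0.20) and Des, the muscle filament desmin that pericytes contain, by 1.47 (SE 0.30). Nefl, the light neurofilament of axons, fell by 1.30 (SE 0.36). Without sham replicate 1, 2 or 3, the list had 2 higher and 1 lower in each case. With scaling by library size alone it had 4 higher and 1 lower.

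The next members are a secreted inhibitor, a pattern recognition protein and a crosslinking enzyme. Serpina3n encodes a secreted serine protease inhibitor of the acute phase (MGP_BALBcJ_G0020016, chr12:102578464-102586073, plus strand). Its level was 1057, 576 and 633 CPM in the I/R libraries and 61.3, 52.9 and 56.6 CPM in the sham libraries. The lowest I/R library was 9.39 times the highest sham library. Serpina3n rose by 3.73 (log2, SE 0.25, edgeR adjusted p of 0.000215), and in I/R it overlapped Vim in FPKM as the next most abundant of the 10 genes after Gfap, at 404 ± 161 FPKM. The gene lies in a cluster of near copies. In the GRCm38 transcripts, 6.9% of the 50-base stretches of Serpina3n also occur in other genes, mostly in Serpina3 paralogs, so a small part of its reads could have been counted elsewhere or dropped. The count of the paralog Serpina3m is more uncertain. It went from 0.388 ± 0.042 to 7.87 ± 3.29 CPM (log2 fold change 4.34, SE 0.36), but it was 0.681% of the level of Serpina3n in sham and 1.04% in I/R. Of its own 50-base stretches, 19.1% occur in other genes, with 257 of these 307 stretches in Serpina3k and 18 in Serpina3n. How many reads of its paralogs were counted as Serpina3m was not tested. Serpina3c, also of this cluster, was called higher at 1.68 (SE 0.53) on mean levels under 1 CPM. It was at 0.681, 0.425 and 1.35 CPM in I/R replicates 1, 2 and 3. It shares 25 of the 50-base stretches of Serpina3n and 32 of those of Serpina3m.

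Ptx3 encodes the long pentraxin 3, a secreted protein of innate immunity that binds microbes, complement and matrix (MGP_BALBcJ_G0027249, chr3:63296557-63302453, plus strand). Ptx3 was counted at 106, 47.4 and 41.2 CPM in the I/R libraries, and at 1.05, 0.714 and 1.63 CPM in the sham libraries. All sham libraries were near the low end, with 29 to 56 counts. Its log2 fold change was 5.86 (SE 0.48, edgeR adjusted p of 0.000315), and only that of Tgm1 was larger among the 10 genes. Veph1 overlaps Ptx3 on the other strand and had 42 counts in all libraries together. Of the other pentraxins, the neuronal Nptx2, which gathers glutamate receptors at synapses, rose by 3.06 (SE 0.12), from 38.6 ± 2.35 to 322 ± 35.3 CPM. Nptx1, another secreted pentraxin of synapses, fell by 1.36 (SE 0.31) and the membrane-bound Nptxr by 1.12 (SE 0.31).

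Tgm1 encodes transglutaminase 1, a membrane-anchored enzyme that crosslinks proteins and is best known from the skin barrier (MGP_BALBcJ_G0021327, chr14:48719498-48732981, minus strand). The sham libraries held 3, 0 and 2 counts of Tgm1. The I/R libraries held 4568, 2083 and 1946 counts, or 100.4, 52.1 and 48.7 CPM. Sham was thus at the floor of 3 counts per library that was used for detection. The mean level of Tgm1 in I/R was therefore at least 846 times that in sham (edgeR adjusted p of 0.000116). Between single libraries, the lowest I/R level was 633 times the highest sham level. The fitted log2 fold change of 10.48 depends on the prior count and is no bound. It ranked 7 of 18569 genes. Tgm2, the widely expressed tissue transglutaminase, was present in sham at 15.3 ± 2.33 CPM and rose by 2.56 (SE 0.34). Tgm3 was not called (0.98, SE 0.37).

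The remaining members sit in the plasma membrane. Cd44 is the receptor for the matrix polysaccharide hyaluronan and also binds osteopontin (MGP_BALBcJ_G0026169, chr2:100714952-100809028, minus strand). Its level was 109, 72.6 and 68.02 CPM in the I/R libraries and 3.61, 4.53 and 2.64 CPM in the sham libraries. The lowest I/R library was 15.02 times the highest sham library. Cd44 rose by 4.53 (SE 0.26, edgeR adjusted p of 0.000169). Its ligands and the enzymes that make them moved in different directions. Spp1, which encodes osteopontin, rose by 6.17 (SE 0.41), from 9.42 ± 2.01 to 681 ± 351 CPM. The hyaluronan synthases Has1 and Has2 rose by 2.24 (SE 0.42) and 3.36 (SE 0.30) but were below 5 CPM on average in both groups, and Has3 fell by 0.96 (SE 0.19).

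S1pr3 is a G protein-coupled receptor for the lipid sphingosine 1-phosphate (MGP_BALBcJ_G0020499, chr13:49017647-49031875, plus strand). S1pr3 stood at 75.4, 49.5 and 48.6 CPM in the I/R libraries, and at 11.8, 10.999 and 12.1 CPM in the sham libraries. It was the tightest of the 10 genes in sham, with a coefficient of variation of 4.97%. S1pr3 rose by 2.31 (SE 0.18, edgeR adjusted p of 0.000291). The receptor S1pr2 rose by 1.47 (SE 0.25), from 2.51 ± 0.52 to 6.94 ± 1.72 CPM. The other receptors did not pass the test: S1pr1, the most abundant of the family in sham at 37.2 ± 1.14 FPKM, was at 124 ± 4.41 CPM in sham and 124 ± 23.7 CPM in I/R, and S1pr4 and S1pr5 had log2 fold changes of 0.08 and -0.05. Of the enzymes, Sphk1, which makes the ligand, rose by 3.44 (SE 0.31), its paralog Sphk2 was not called (0.05, SE 0.09), and Sgpl1, which degrades the ligand, rose by 1.14 (SE 0.17). Sphk1 is also one of the genes described in astrocytes after ischemia and is counted in that list below.

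Emp1 encodes epithelial membrane protein 1, a 4-pass membrane protein of the PMP22 family (MGP_BALBcJ_G0031401, chr6:134028039-134048862, plus strand). Its level was 159, 119 and 65.2 CPM in the I/R libraries and 2.87, 2.90 and 3.26 CPM in the sham libraries. I/R replicate 3 was the lowest I/R library, yet all were at least 20.02 times the highest sham library. Emp1 rose by 5.25 (SE 0.34, edgeR adjusted p of 0.000212). Its relatives Emp3, Pmp22 and Emp2 rose by 2.82 (SE 0.35), 1.2 (SE 0.18) and 0.70 (SE 0.23).

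Steap4 encodes a membrane metalloreductase that reduces iron and copper and is induced by inflammation in other tissues (MGP_BALBcJ_G0029260, chr5:4977535-4997242, plus strand). Steap4 was the least abundant member in I/R, at 19.4, 10.1 and 7.48 CPM, and stood at 0.743, 0.640 and 1.51 CPM in the sham libraries. Sham replicate 3 was the highest sham library, and the groups did not overlap. The log2 fold change was 3.69 (SE 0.46, edgeR adjusted p of 0.00105), the largest adjusted p of the 10 genes. Steap3 also rose, by 1.64 (SE 0.23), while Steap1 and Steap2 were not called. Both of these were lowest in the libraries with few choroid plexus reads: Steap1 was at 2.02 FPKM in I/R replicate 3 and 0.0485 FPKM in sham replicate 1, against 4.34 to 9.57 FPKM in the other libraries. The part of choroid plexus in the values of Steap1 and Steap2 was not tested. Of the relatives and partners of the 10 genes as a list, 25 of 35 listed were tested, with 14 higher, 3 lower and 8 not called and a median log2 fold change of 1.14.

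**Figure D2:**
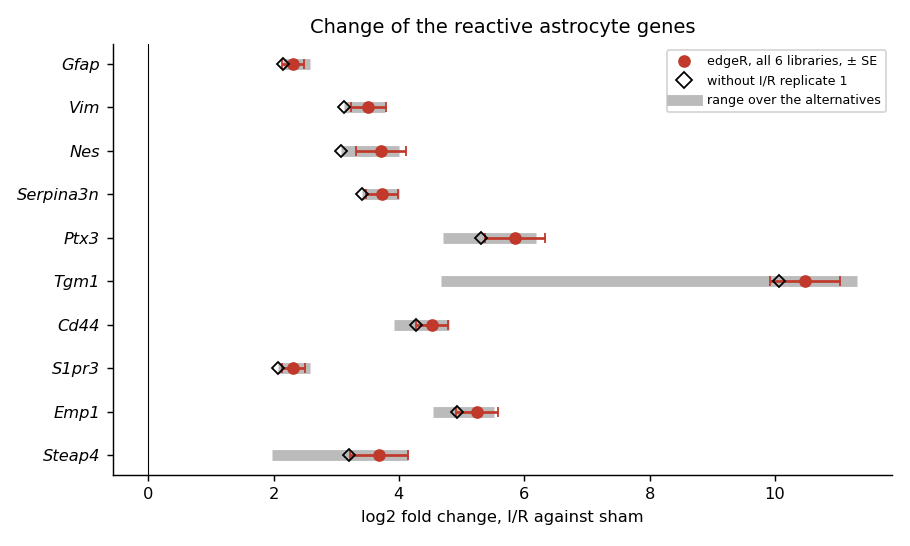
Log2 fold change of each reactive astrocyte gene, I/R against sham, with the edgeR estimate and its SE from all 6 libraries (red), the estimate without I/R replicate 1 (diamond) and the range over the alternative settings (grey). All values lie above 0; the grey bars of Tgm1 (4.67 to 11.31), Ptx3 and Steap4 reach low because a pseudocount of 1 on FPKM shrinks changes of genes that are scarce in sham, and the value of Tgm1 is a fitted one against a group at the floor.

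Per length, the order of the genes in sham was Gfap, Vim, Serpina3n, Nes, S1pr3, Cd44, Emp1, Ptx3, Steap4 and Tgm1. The neighbours Vim and Serpina3n, Nes and S1pr3, Cd44 and Emp1, and Ptx3 and Steap4 overlapped in FPKM across the sham libraries. In I/R the order of the means was Gfap, Serpina3n, Vim, Emp1, Ptx3, Nes, Cd44, Tgm1, S1pr3 and Steap4. Gfap and Steap4 stood apart at both ends. Serpina3n overlapped Vim, and Emp1 (52.5 ± 23.7 FPKM), Ptx3 (46.7 ± 28.1 FPKM), Nes (40.3 ± 27.0 FPKM), Cd44 (32.9 ± 10.6 FPKM) and Tgm1 (26.5 ± 12.8 FPKM) all overlapped each other, while S1pr3 (14.2 ± 4.47 FPKM) overlapped Tgm1 but not Nes. Tgm1 thus went from 0.0148 ± 0.0131 FPKM, the lowest of the 10, to a level that overlapped Nes. The deposited FPKM do not follow the listed gene lengths: over 12520 genes with at least 100 counts in every library, the length implied by count and FPKM was a median of 0.627 of the listed one (1859 against 2648 bases for Gfap and 1489 against 2926 for Vim), so the order rests on lengths the authors chose.

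The start sites of these genes are shown as a description of their letters, and no cause of the rise was tested. RefSeq windows on GRCm38.p6, from 250 bases before to 50 after a start site, were given for 10 of 10 members (12 windows, with a pair each for Tgm1 and Emp1) and were searched on both strands. The STAT letters TTCNNNGAA occurred in 4 of 10 members, namely Gfap, Steap4, Emp1 and Tgm1, against 9.55% of 27025 genes in the table (8.3% of 32851 windows). The AP-1 letters TGANTCA occurred in 1 member, Emp1, against 8.97% of genes, and the NF-κB consensus in 3, Vim, Ptx3 and Steap4, against 5.14% of genes. The windows with a STAT match follow, 5′ to 3′ on the strand of the gene, with matches to any of these motifs in capitals.
Gfap, chr11:102897151-102897450, minus strand: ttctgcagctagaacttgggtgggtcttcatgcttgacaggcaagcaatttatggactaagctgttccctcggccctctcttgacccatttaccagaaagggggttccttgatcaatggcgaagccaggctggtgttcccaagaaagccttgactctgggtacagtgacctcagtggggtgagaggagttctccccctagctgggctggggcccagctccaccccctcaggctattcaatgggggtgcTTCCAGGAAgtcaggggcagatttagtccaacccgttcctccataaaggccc
Steap4, chr5:7960222-7960521, plus strand: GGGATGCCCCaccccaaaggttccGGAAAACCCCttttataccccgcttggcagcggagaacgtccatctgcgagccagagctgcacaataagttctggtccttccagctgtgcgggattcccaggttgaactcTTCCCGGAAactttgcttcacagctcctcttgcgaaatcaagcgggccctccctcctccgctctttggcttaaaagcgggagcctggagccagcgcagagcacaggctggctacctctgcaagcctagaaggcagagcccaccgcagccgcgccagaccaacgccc
Emp1, chr6:135362681-135362980, plus strand: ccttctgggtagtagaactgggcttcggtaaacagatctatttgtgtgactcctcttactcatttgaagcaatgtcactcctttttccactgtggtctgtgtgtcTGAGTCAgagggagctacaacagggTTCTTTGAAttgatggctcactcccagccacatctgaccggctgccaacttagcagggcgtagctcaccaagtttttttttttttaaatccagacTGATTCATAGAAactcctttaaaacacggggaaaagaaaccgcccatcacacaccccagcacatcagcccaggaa
Tgm1, chr14:55713443-55713742, minus strand: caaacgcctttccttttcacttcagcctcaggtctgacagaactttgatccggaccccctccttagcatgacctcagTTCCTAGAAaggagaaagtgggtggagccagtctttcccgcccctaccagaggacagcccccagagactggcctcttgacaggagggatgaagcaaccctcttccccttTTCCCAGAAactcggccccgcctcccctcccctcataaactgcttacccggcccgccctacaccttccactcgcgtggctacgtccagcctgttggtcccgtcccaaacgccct
The STAT match TTCCAGGAA of Gfap begins at position -2 from the listed start, and TTCCCGGAA of Steap4 at position -116, with both NF-κB matches of Steap4 farther upstream. Emp1 holds STAT matches at positions -120 and -22 and AP-1 matches at -145 and -25, of which TGATTCA overlaps the STAT match TTCATAGAA. Tgm1 holds TTCCTAGAA at -173 and TTCCCAGAA at -64. In windows that are not shown, NF-κB matches begin at -223 in Vim and at -1 and 1 in Ptx3. A match is a description of the letters and not a site in use, and no match says only that the letters are not in this window.

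Genes of the interleukin-6 family and STAT3 were largely upregulated. Of 12 listed genes 11 were tested, and 9 were higher, 1 lower and 1 not called, with a median log2 fold change of 2.07. Counting those with at least 10 counts in every library, 7 of 9 were higher and the median was 0.85. Among the ligands, Il6 had 0 to 1 count per library in sham, and its mean level in I/R (7.16 ± 2.39 CPM) was at least 90.3 times that in sham. Lif rose by 5.11 (SE 0.36). Osm rose by a fitted 4.91 (SE 0.57) from 1, 2 and 5 counts in the sham libraries. Among the receptors, Osmr, which binds oncostatin M, rose by 3.92 (SE 0.26), Il6st, the shared signalling chain gp130, by 0.85 (SE 0.19) and Il6ra by 0.82 (SE 0.16). Lifr fell by 0.27 (SE 0.09, edgeR adjusted p of 0.0441), a call that was lost in 14 of 19 other settings, in which 0 genes of the list were lower. Stat3 itself rose by 2.07 (SE 0.17), from 64.9 ± 2.42 to 273 ± 66.6 CPM. Socs3, a feedback inhibitor and target of STAT3, rose by 5.17 (SE 0.36), and of the kinases Jak2 rose by 0.46 (SE 0.08) while Jak1 was not called.

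Further genes known from reactive astrocytes were compared by the kind of stimulus in which they were described. Of 7 other pan-reactive genes, 6 were tested and 6 were upregulated (median log2 fold change 4.40), from Cp, the copper-binding ferroxidase ceruloplasmin, at 1.68 (SE 0.18) to Timp1, an inhibitor of matrix proteases, at 6.90 (SE 0.29). Osmr, counted above with the IL-6 family, is also in this list. Hspb1 was below the count filter, at 0 counts in sham and 1, 4 and 5 counts (0.0824 ± 0.0538 CPM) in I/R. So few counts give no level of Hspb1, and whether its reads were counted elsewhere or dropped was not tested. Of 9 other genes described after ischemia, 8 were named in the table and 8 of 8 were upregulated (median 3.59), from Cd109 at 1.47 (SE 0.17) to Slc10a6, a transporter of steroid sulfates, at 6.68 (SE 0.75). Slc10a6 had 11, 0 and 1 counts in the sham libraries, so it passed the count filter only through I/R and its value is a fitted one. Of 12 genes described after lipopolysaccharide, 10 were tested, with 7 higher, 1 lower and 2 not called and a median of 1.88. Gbp2, an interferon-induced GTPase, rose by 3.45 (SE 0.25), and Amigo2, an adhesion protein that pyramidal neurons also express, fell by 1.18 (SE 0.32). The difference between these lists was not tested. Restricted to genes with at least 10 counts in every library, the counts were 5 of 5, 7 of 7 and, for the lipopolysaccharide list, 7 higher and 1 lower of 10. The medians of these genes were 3.92, 3.44 and 1.88.

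**Figure D3:**
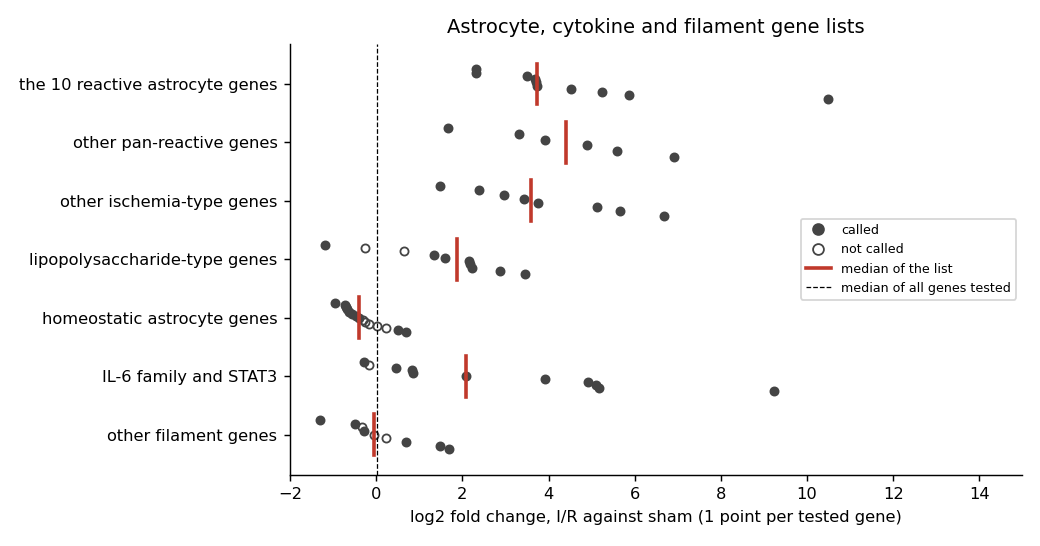
Log2 fold change (I/R against sham) of each tested gene in 7 gene lists, filled where called, with the median of each list in red and the median of all genes tested (0.03) dashed. The reactive astrocyte genes and the pan-reactive and ischemia-type lists lie wholly to the right of 0, the homeostatic astrocyte and filament lists straddle it, and the far right points of Tgm1 (10.48) and Il6 (9.24) are fitted values against a group at the floor.

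Genes of homeostatic astrocytes did not rise with the reactive ones. Of 15 tested, 8 were lower, 2 higher and 5 not called, and the median log2 fold change was -0.41. Slc1a2, the main glutamate transporter, fell by 0.96 (SE 0.20) and Glul, which turns glutamate into glutamine, by 0.72 (SE 0.14). Sox9, a transcription factor of astrocytes, rose by 0.68 (SE 0.12) and the water channel Aqp4 by 0.52 (SE 0.16). Without sham replicate 3 the count was 1 higher and 5 lower, and with scaling by library size alone it was 3 higher and 5 lower with a median of -0.14; that scaling moved the median of all genes tested from 0.03 to 0.28 and the split of all calls from 4054 higher and 3702 lower to 6334 and 2027.

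A ratio of reads within a library does not depend on the scaling. For every 100 reads of the 15 homeostatic genes there were 46.1, 31.4 and 32.3 reads of Gfap in the I/R libraries and 4.45, 4.79 and 4.90 in the sham libraries, and the groups did not overlap. For Vim the I/R libraries had 14.3, 7.48 and 6.38 reads, and the sham libraries 0.542, 0.555 and 0.472. All 10 genes were separated between the groups by this measure, with mean ratios from 7.77 times (Gfap) to 91.7 times (Ptx3) higher in I/R among the 9 genes that were detected well in sham. Much of the divisor is 2 genes that fell in I/R. In sham replicate 1, Slc1a2 held 122826 and Glul 72687 of the 329242 reads of the list. By the means of CPM, Gfap was 4.96 times higher in I/R. The ratio shows unequal change of the reactive and homeostatic genes and not which of them changed.

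**Figure D4:**
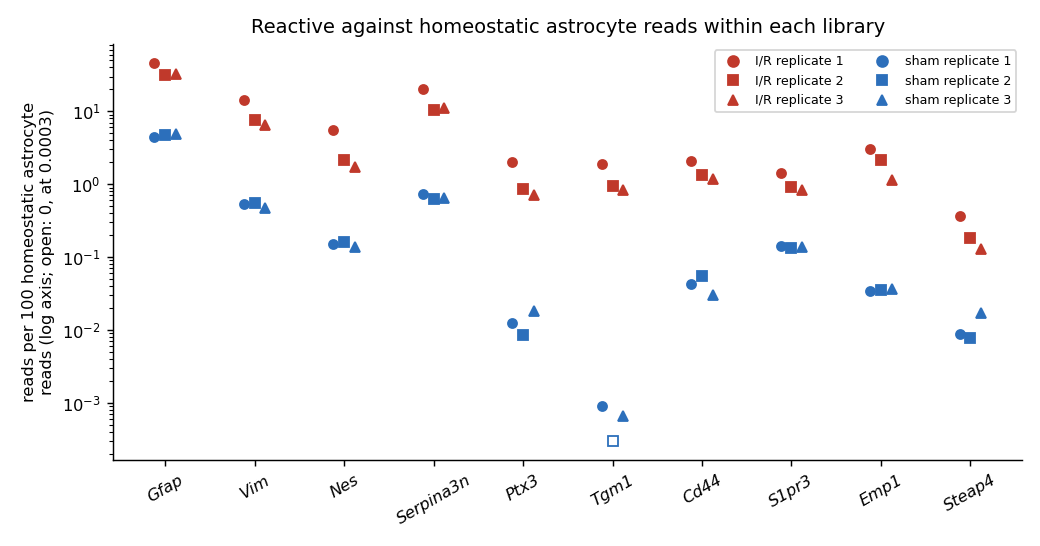
Reads of each reactive astrocyte gene per 100 reads of the 15 homeostatic astrocyte genes in the same library, on a log axis, with I/R in red and sham in blue; the open marker is a library with 0 reads. For Gfap the I/R libraries lie between 31.4 and 46.1 and the sham libraries between 4.45 and 4.90, and no gene has overlapping groups.

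The I/R libraries were not alike. I/R replicate 1 was the highest library for 10 of 10 genes, and I/R replicate 3 was the lowest I/R library for 8 of 10. The level in I/R replicate 1 divided by the mean of the other I/R libraries ran from 1.35 for Gfap to 2.66 for Nes, with a median of 1.84. The same ratio had a median of 1.25 (quartiles 1.04 and 1.56) over the 4054 genes called higher and 0.998 over all genes tested. A high ratio was not particular to the 10 genes. Its median was 1.83 for the ischemia-type list, 1.63 for the other pan-reactive genes and 1.52 for endothelial markers. For markers of monocytes, macrophages and neutrophils it was 2.55, for homeostatic astrocyte genes 1.04 and for neuron markers 0.576. The summed CPM of the 10 genes was 5079, 3167 and 3244 in the I/R libraries and 515 to 567 in the sham libraries. With 3 I/R libraries, the place of replicate 1 was not tested.

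Markers of other cell types moved too, and some of them followed the same order of libraries. Neuron markers, from 12402 to 12597 CPM in sham, summed to 2513, 5102 and 5765 CPM in I/R, and 7 of 8 were lower and 0 higher, from Camk2a at -2.07 to Gad2, not called, at -0.12 (4 lower without sham replicate 2). A sum weighs abundant genes most. Camk2a was the most abundant of the 8 in sham, at 2563 ± 33.2 FPKM, against 319, 835 and 1001 FPKM in I/R. Endothelial markers, from 260 to 264 CPM in sham, summed to 618, 467 and 397 CPM, and 6 of 7 were higher and 1 lower, from Slco1a4 at -1.17 to Ly6a at 2.61. Markers of monocytes, macrophages and neutrophils, from 6.66 to 8.61 CPM in sham, summed to 74.7, 27.1 and 33.8 CPM, and 6 of 7 tested were higher, from Ms4a7, not called, at 1.61 to S100a8 at 4.66; of these blood-cell genes Ly6g was at 0.00732 CPM in I/R and 0 in sham. Each of these sums was most extreme in I/R replicate 1. Their part in the rise of the reactive astrocyte genes was not tested.

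Microglia markers had 3 of 7 higher and 2 lower with a median of 0.23, from P2ry12 at -1.67 to Aif1 at 0.76. They summed to 347, 254 and 291 CPM in I/R replicates 1, 2 and 3 and to 242 to 274 CPM in sham. Without sham replicate 1 or 2 there were 1 higher and 2 lower. Mural and fibroblast markers had 5 of 9 higher and 2 lower, from Vtn at -0.48 to Lum at 1.53. They summed to 357, 289 and 276 CPM in I/R replicates 1, 2 and 3 and to 258 to 279 CPM in sham. Both sums were thus also highest in I/R replicate 1. Without sham replicate 1, 2 or 3 there were 3, 2 and 3 mural and fibroblast markers higher and 1 lower each. Oligodendrocyte markers had 2 of 6 lower and 0 higher, with Mag not called at 0.51, and 0 to 4 were called without 1 library. None of the 7 choroid plexus markers was called by edgeR, nor had any an unadjusted p under 0.05 (0 of 7), from Kl at -1.57 to Kcnj13 at -0.34, though 1 was lower without sham replicate 1.

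**Figure D5:**
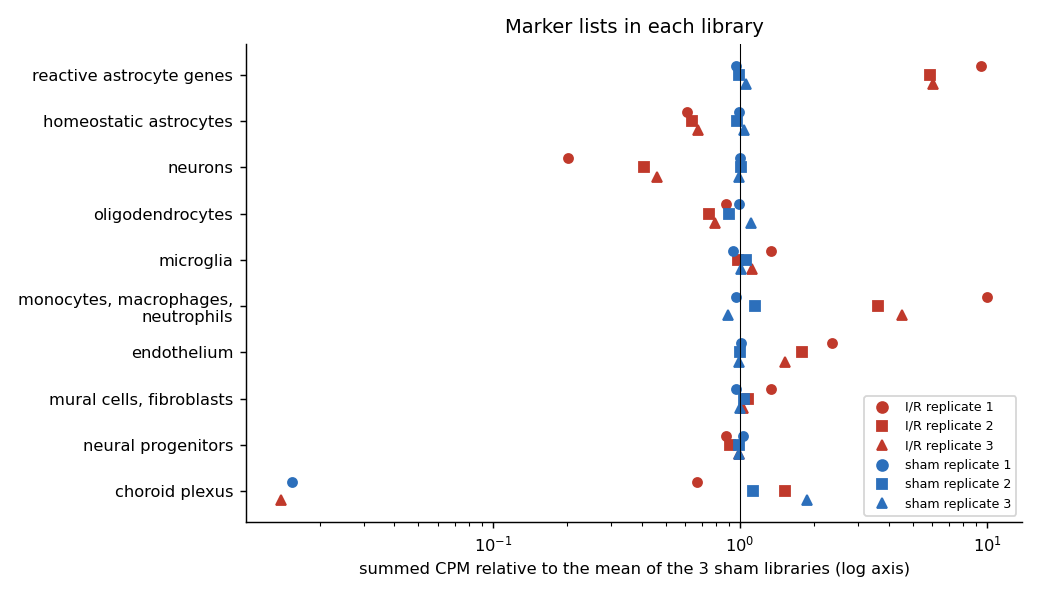
Summed CPM of each marker list in each library, relative to the mean of the 3 sham libraries, on a log axis (I/R red, sham blue, marker shape by replicate). The reactive astrocyte genes stand at 9.44, 5.89 and 6.03 times the sham mean in I/R, neuron markers at 0.201, 0.408 and 0.461 times, and choroid plexus markers are near 0 in I/R replicate 3 and sham replicate 1.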

How the data were processed

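Hippocampal RNA of 3 I/R and 3 sham replicates was sequenced, and each sample's title gave its group and replicate number. The study's methods say that the authors aligned reads with TopHat2 and computed expression with HTSeq. The deposited table holds whole-number counts per gene, taken here as the raw counts. The submitters' processing notes instead list Bowtie 0.12.2 and mm8. The gene identifiers are those of Ensembl's BALB/cJ annotation although the mice were C57BL/6, and the strandedness of the counting is not given in the sources used here. The deposited FPKM are counts that the authors divided by a gene length and by the library's reads. The table's group means, fold changes and p-values of the authors' own comparison were not used. Of 41390 lines, 4 text-only continuation lines were dropped.

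Counts were tested in R 4.3.3 with edgeR 4.0.16 (filterByExpr, TMM, glmQLFit with robust estimation, glmQLFTest, no covariate), Benjamini-Hochberg adjusted over 18569 genes, and the fit was tested on simulated data. SE is the log2 fold change divided by the square root of F. Where a group had at most 3 counts in every library, the fold is a lower bound, the mean of the other group against that floor. PCR copies were not told apart, and the floor therefore covers only counting error. Exact permutation tests were two-sided. Alternatives used DESeq2 1.42.0, limma 3.58.1 and other scalings, filters and samples.

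The members and the lists were chosen with earlier results of these data known. Named genes are the 10 members, the tested gene with the highest and lowest log2 fold change of each other list, and those relatives or partners of a member that a sentence is about; Aqp4, Glul, Des, Prox1, Hspb1, Ly6g and the further IL-6 family and STAT3 genes were added after their values were seen, and 1 gene named by the highest or lowest value of its list is not reported here. Replicates are pools of hippocampi, so p-values measure the spread between pools. RefSeq sequences are on GRCm38.p6 and the table's coordinates on BALB/cJ; no coordinates were converted.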

Additional observations from a re-analysis of the deposited data

How the results depend on the processing

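All 10 reactive astrocyte genes stayed upregulated in 189 of 189 values under 19 other settings, and the stricter filter of 10 counts in every library left 9 of them, without Tgm1. Of 323 counts for all genes and for the lists under these settings, 283 were within 1.5 times the count reported. A fold change over 2 called 2760 genes and left 0 homeostatic astrocyte, 3 filament, 6 IL-6 family, 1 microglia, 3 endothelial, 2 mural and fibroblast, 0 progenitor, 4 neuron and 0 oligodendrocyte genes called. Leaving out 1 replicate gave 6 to 11 homeostatic astrocyte, 3 to 6 filament, 3 to 5 microglia, 3 to 7 mural and fibroblast, 0 to 1 choroid plexus, 4 to 7 neuron and 0 to 4 oligodendrocyte genes. I/R replicate 3 and sham replicate 1, left out together because of their few choroid plexus reads (a setting chosen after seeing the data), gave 5 homeostatic, 3 microglia, 4 mural and fibroblast, 3 choroid plexus and 0 oligodendrocyte genes. The stricter filter tested and called 2 monocyte, macrophage and neutrophil genes. Oligodendrocyte calls were 1 with library size only, upper quartile scaling, log2(FPKM + 1) or log2(FPKM + 0.1), 4 with the DESeq2 Wald test or an unadjusted p, and 0 with the replicate block. The replicate block called 6332 genes (3274 higher, 3058 lower) and all 10 members. Same-numbered libraries did not deviate together (correlations of -0.10, 0.06 and -0.18), but with 3 libraries per group this cannot exclude that the numbers pair them. Where a count moved, the cause was not tested, except that a higher fold limit can only remove calls. At this depth 3 counts are 0.0659 to 0.0872 CPM, which limits Tgm1 and Il6 in sham.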
